A study of Saccharomyces cerevisiae with 104 samples.

Results

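The nuclear genes for respiratory complexes II, III and IV and for the ATP synthase were followed across a panel of budding yeast histone mutants. The set held 32 genes of the 7122 in the count table, chosen by systematic name: 2 subunits of complex II, 9 of complex III, 9 of complex IV and 12 of the ATP synthase. Cytochrome c and genes on chromosome XI were left out by the rule, which used no measured value. All 32 passed the filter on low counts. QuantSeq, which sequences the 3′ end of polyadenylated RNA, had been run on 90 libraries of 30 genotypes of Saccharomyces cerevisiae. The strain background was MSY196, based on S288C, and the growth medium of the RNA samples was not given in the sources used here. As background, the reference strain S288C carries a Ty insertion in HAP1, the gene of a haem-dependent activator of respiratory genes, and whether MSY196 carries it was not given.

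The control was wild type (WT, 4 libraries). The histone H3 mutants were H3T3A and H3T3D (2 libraries each) and, with 3 libraries each, H3K4Q, H3K4R, H3K18A, H3S31D, H3K36A, H3K36Q, H3K36R, H3K37Q, H3K37R, H3R40K, H3S86A, H3S86D, H3K115A, H3K115Q, H3K115R, H3K121A, H3K121Q, H3K121R, H3K122A and H3K122Q. The H4 mutants were H4K44Q, H4K44R, H4R55A, H4Y88F, H4K91Q and H4K91R (3 libraries each) and H4Y88A (4 libraries). A name gives the histone, the residue, its position and its replacement, so that H3R40K has lysine in place of arginine at position 40 of H3. Libraries carry the genotype and the sample number of their column (WT S133, for example).

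Complex II passes electrons from succinate to ubiquinone, complex III from ubiquinol to cytochrome c, and complex IV from cytochrome c to oxygen. Complexes III and IV pump protons across the inner mitochondrial membrane, and the ATP synthase uses the return of protons to make ATP. Budding yeast ferments glucose even in air and represses many of these genes while it does so. The HAP complex, made of HAP2, HAP3, HAP4 and HAP5, is known to activate them when glucose is used up. A few core subunits are encoded in mitochondrial DNA, the rest in the nucleus.

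Libraries held 768398 to 3143681 counts in genes, except for H3K4R S55, with 24010, of which 51 lay in the 32 genes. The 32 genes together took 0.180% to 0.622% of the counts in genes (median 0.290%). Levels are CPM, counts per 1e+06 counts after scaling between libraries. They are compared here within a gene only, because 3′ reads outside the annotated gene were not counted. The sample numbers fell into 3 sets, S46 to S93 (44 libraries, 3 of WT), S94 to S117 (22, none of WT) and S118 to S141 (24, 1 of WT), and what the sets are was not given in the sources used here. In H3K121R and H3K37Q the 298 tested genes of chromosome XI had median log2 fold changes over WT of 0.89 and 0.84, against -0.01 and -0.04 for the other genes. No member lies on that chromosome. In these bulk samples, fewer cells with a transcript and less of it per cell cannot be told apart.

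The genes varied together across the genotypes. Over the 30 genotype means of log2 CPM, the median Pearson's r of the 496 pairs of members was 0.60, against 0.07 for all pairs of tested genes. Pairs from the same complex had a median of 0.59 and pairs from different complexes 0.61. Over the 22 genotypes of the first set the median of member pairs was 0.68, and over the deviations of the 90 libraries from their genotype mean it was 0.57. Each of these correlations, over genotype means as well as over deviations, includes H3K4R S55. By the last value, the genes also moved together between libraries of one genotype. These correlations are descriptions over points that share sets of sample numbers and the scaling to CPM. The closest pair was ATP2 and ATP3, the beta and gamma subunits of the catalytic F1 head of the ATP synthase (r = 0.96). In H3K4R, whose mean includes H3K4R S55 with its 24010 counts, they stood at -2.02 and -1.61 against their means over genotypes. How far that genotype raises their r was not tested. The gene least like the others was QCR6, a small acidic subunit of complex III, with a median r of 0.18 to the other members. COX5B, the hypoxic form of subunit 5 of complex IV, had 0.35, ATP14, a stator subunit of the ATP synthase, 0.39, and ATP4, another stator subunit, 0.39.

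**Figure D1:**
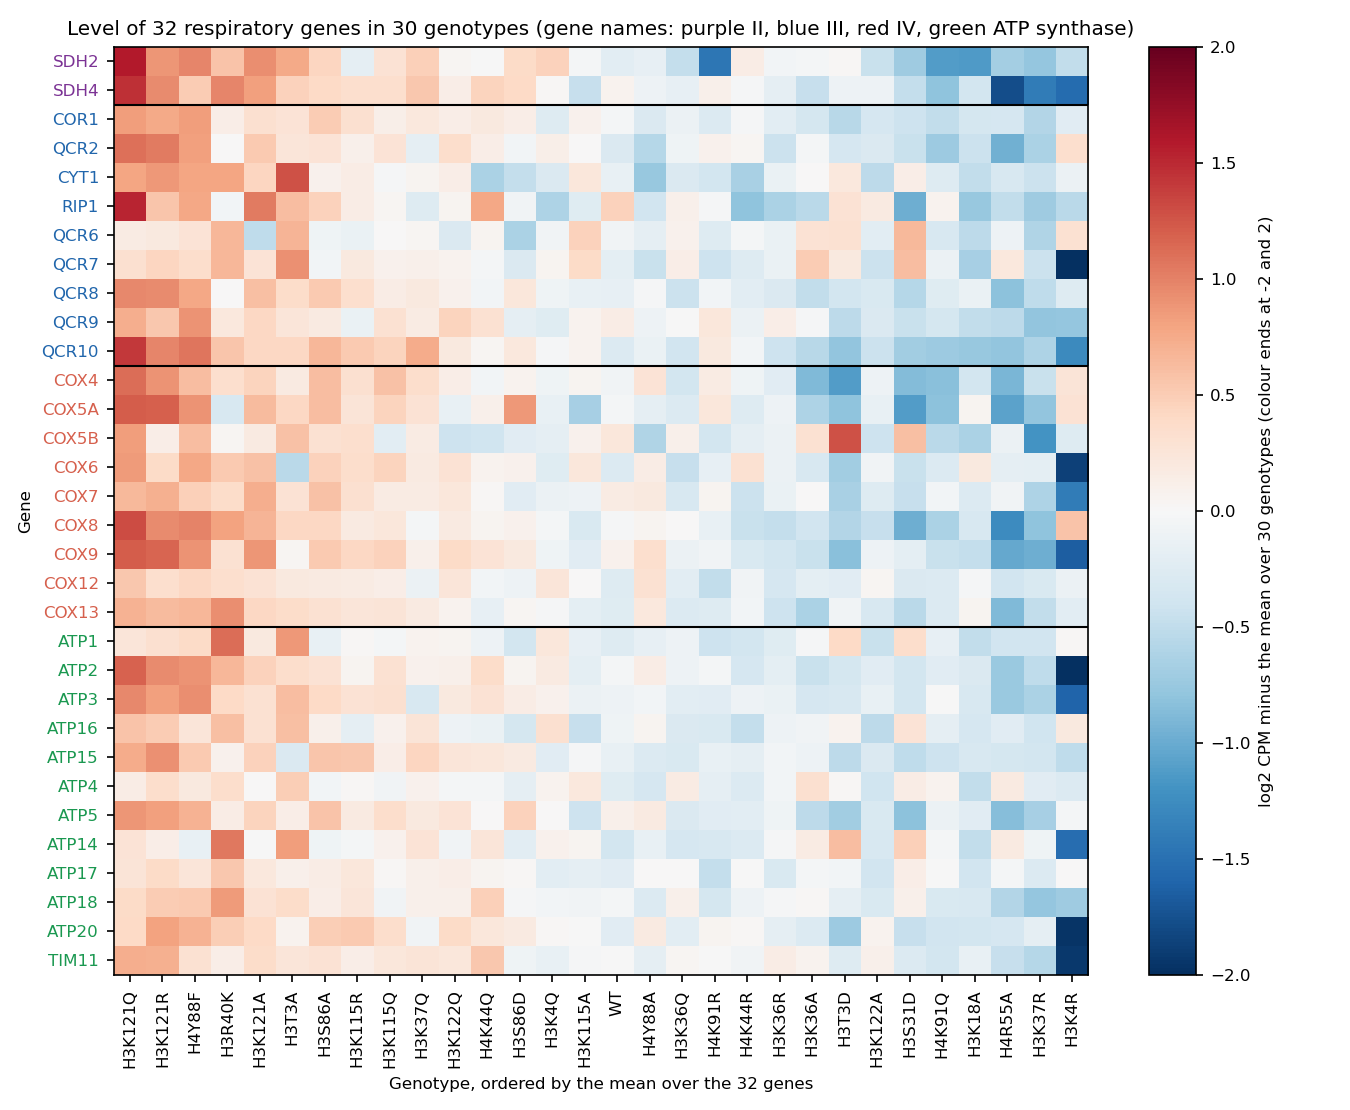
Level of each of the 32 genes (rows, grouped by complex) in each of the 30 genotypes (columns, ordered by the mean over the genes), as log2 CPM minus the gene's mean over genotypes. H3K121Q, with a mean of 0.81, is at the left and H3K4R, with -0.67, at the right, and rows for ATP14, COX5B and QCR6 depart from the order of the rest. The mean of H3K4R includes H3K4R S55, the library with 24010 counts, at -2.16.

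Averaged over the 32 genes, the genotypes furthest above the mean of all genotypes were H3K121Q (0.81 on the log2 scale), H3K121R (0.68), H4Y88F (0.62), H3R40K (0.45) and H3K121A (0.42). WT stood at -0.09, at rank 16 of 30. The lowest were H4R55A (-0.53), H3K37R (-0.57) and H3K4R (-0.67), the last of which holds the library with 24010 counts. That library stood at -2.16 and the other H3K4R libraries at -0.10 and 0.26. In the comparison with WT on counts, described below, the members' median log2 fold change in H3K4R was 0.19, with 21 of 32 positive. All 32 genes lay above their own mean in H3K121Q and in H3K121R, and none did in H3K37R. Within genotypes the libraries were far apart: the 3 of H3K121A ran from -0.63 to 1.11, and those of H4R55A from -1.29 to 0.16. Those of H3R40K ran only from 0.35 to 0.50.

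A test for any difference among the 30 genotypes, added after the data were seen, called 27 of the 32 genes at an adjusted p under 0.05 (edgeR quasi-likelihood test, Benjamini-Hochberg over all genes), where 52.7% of all genes were called. The 5 not called were QCR7, COX12, ATP4, ATP17 and TIM11. The test had no term for the set of sample numbers, and 8 genotypes had libraries in the third set alone. Differences between genotypes and between sets cannot be told apart in it. Across genotypes the log2 levels of the members had a median SD of 0.48, against 0.36 for all tested genes. Between libraries of one genotype it was 0.63, against 0.52. In both cases, with H3K4R S55 included, the members varied more than the median gene. Complex II, whose iron-sulphur subunit SDH2 and membrane anchor SDH4 were measured here, had the highest median SD between genotypes of the complexes (0.71), and the ATP synthase the lowest (0.43). SDH2 (YLL041C) had a median of 4.5 counts per library and RIP1 (YEL024W), the Rieske iron-sulphur protein of complex III, 4, and counting error is large at that depth.

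Each of the 29 mutants was then compared with WT, with the 4 WT libraries shared by all 29 comparisons. Of the 928 comparisons of a member and a mutant, 11 were called, all of them higher in the mutant, which is 1.19% against 1.4% of all gene and mutant pairs (0.856% higher and 0.548% lower). The share called in the set was thus near the background. At an unadjusted p under 0.05 there were 130 (14%), against 11.5% of all pairs. The 11 were ATP14 in 4 mutants, QCR2 in 2, and QCR10, ATP15, COX13, ATP1 and ATP18 in 1 each, and they fell in H3R40K (4), H3K121R (3), H3K121Q, H3S31D, H3T3A and H3T3D. No gene of complex II was called in any mutant.

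ATP14 (YLR295C, chromosome XII, 721999 to 722373), which encodes subunit h of the stator that holds the F1 head in place, was the only member called in more than 2 mutants. It stood at 31.9, 31.3, 28.3 and 31.6 CPM in WT S133, S46, S81 and S82 (mean 30.8 ± 1.65, SD, n = 4), the second lowest of the 30 genotype means. In H3R40K its libraries had 71.9, 79.7 and 105.5 CPM (mean 85.7 ± 17.6, n = 3), and the log2 fold change was 1.47 (SE 0.24, edgeR adjusted p = 2.17e-05). All 3 lay above every WT library, and the call was kept under all 12 alternatives tried. The H3R40K libraries, S136 to S138, had consecutive numbers and the most counts in genes of all libraries (2632477 to 3143681). They also had the lowest ratios of reads placed at several sites to gene counts (1.26 to 1.62, against a median of 4.06). In H3R40K, mutation, sample position and these library traits cannot be told apart. In H3T3A ATP14 had 98.3 and 53.3 CPM (log2 1.31, SE 0.27, edgeR adjusted p = 0.00334), and in H3T3D 63.4 and 61.2 CPM (log2 1.02, SE 0.27, adjusted p = 0.0129). In H3S31D it had 65.3, 60.7 and 45.3 CPM (log2 0.89, SE 0.25, edgeR adjusted p = 0.0295). Every library of these mutants was above WT.

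These 4 mutants had sample numbers in the third set alone. Of the other genotypes with numbers in that set, WT S133 had 31.9 CPM of ATP14 and H4Y88A S132 26.3. H3K37Q had 64.2, 48.5 and 37.2 CPM, H4R55A 34.5, 45.7 and 58.8, H3K37R 33.9, 38.8 and 40.9, and H3K18A 28.2, 22.1 and 35.7. The means of H3K37Q (49.98), H4R55A (46.3) and H3K37R (37.9) thus lay above the WT mean of 30.8, and that of H3K18A (28.7) was the lowest of all genotypes. With the set as a covariate, ATP14 stayed called in H3R40K (log2 1.63), H3T3A (1.47) and H3T3D (1.17), but not in H3S31D, where 6 of 12 alternatives ended the call and adjusted p reached 0.147 (edgeR). The covariate fit could set the third set against the others only through WT S133 and H4Y88A S132, since no other genotype spanned that set and another. It called 0.412% of all genes higher in H3T3A and 2.13% in H3T3D. The percentages of all genes called higher without it were 4.57 in H3R40K, 0.55 in H3T3A, 4.53 in H3T3D and 2.13 in H3S31D. Leaving out H3T3A S130 left 1 library of that mutant, assumed to vary like the other groups, and the call was lost (log2 0.79); that in H3T3D was lost without either library.

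**Figure D2:**
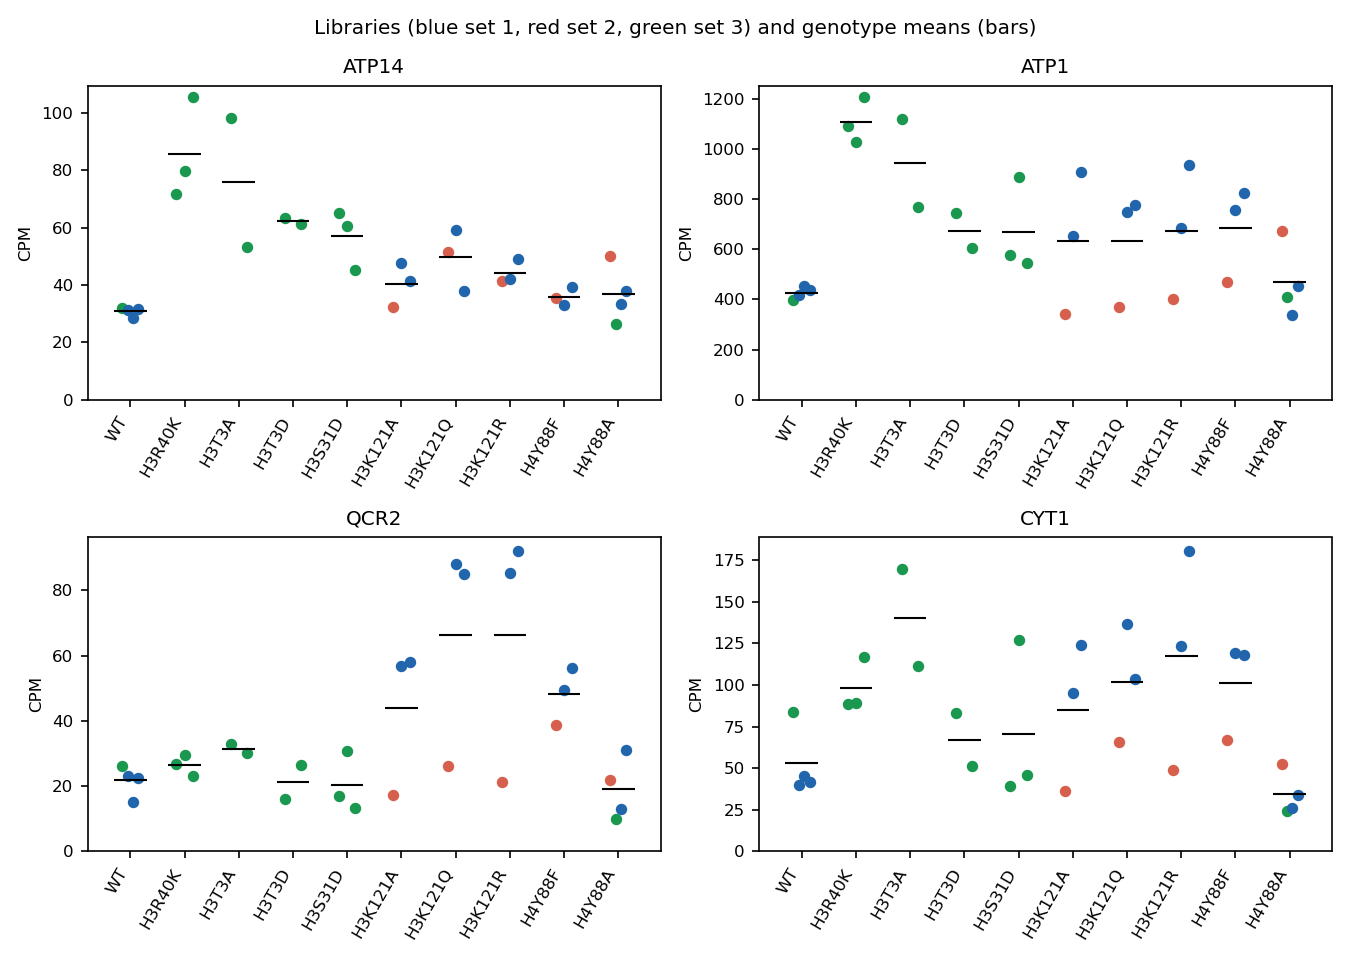
CPM of ATP14, ATP1, QCR2 and CYT1 in every library of 10 genotypes (dots, coloured by set of sample numbers), with genotype means as bars. ATP14 is high in green third-set libraries of H3R40K, at up to 105.5 CPM, with WT at 28.3 to 31.9, whereas QCR2 is high in blue first-set libraries of the H3K121 mutants.

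In H3R40K, 3 further genes were called. ATP1 (YBL099W, chromosome II, 37053 to 38690), the alpha subunit of the F1 head, had 1093, 1027 and 1207 CPM, against 396, 416, 453 and 439 in WT (log2 1.38, SE 0.32, edgeR adjusted p = 0.00273). The groups did not overlap, and this call too was kept under all 12 alternatives. The limit given above for libraries S136 to S138 holds for every call in H3R40K. COX13, a structural subunit of complex IV, had 485, 374 and 369 CPM against 127.2, 323, 186 and 136.99 in WT (log2 1.09, SE 0.35, adjusted p = 0.0351). ATP18, a membrane subunit of the ATP synthase, had 480, 663 and 477 CPM against 259, 200, 410 and 323 in WT (log2 0.86, SE 0.28, adjusted p = 0.0386). Both stood above every WT library, but each lost its call whichever of the H3R40K libraries was left out, and also without WT S133 or WT S82. ATP18 was not called with RLE scaling or by DESeq2 either. Of the 32 genes, 29 had a positive log2 fold change in H3R40K, with a median of 0.62 against -0.04 for all genes. The count of 4 became 8 with the set as a covariate, which added COX6, COX8, ATP2 and ATP17 (4.55% of all genes higher). That fit ties the third set to the others through WT S133 and H4Y88A S132 alone.

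In H3K121R, QCR2, QCR10 and ATP15 were called, in a comparison where 3.83% of all genes were called higher. Of those 223 genes, 169 lay on chromosome XI, which holds no member. In H3K121Q only QCR2 was called, where 0.739% of all genes were called higher. QCR2 (YPR191W, chromosome XVI, 919381 to 920487), a core protein of complex III, stood at 26.3, 23.1, 15.2 and 22.6 CPM in WT. It had 85.2 and 92.1 CPM in the first-set libraries of H3K121R and 21.3 in the second-set library (log2 1.59, SE 0.42, edgeR adjusted p = 0.0119). In H3K121Q it had 88.1 and 85.1 CPM in the first set and 26.3 in the second (log2 1.61, SE 0.43, adjusted p = 0.0455). The first-set libraries were thus far above WT and the second-set libraries near it. The call in H3K121Q was lost without H3K121Q S79, H3K121Q S80, WT S133, WT S81 or WT S82.

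QCR10, a small subunit of complex III, had 43.8 and 47.1 CPM in the first-set libraries of H3K121R and 7.30 in the other, against 6.52 to 15.0 in WT (log2 1.68, SE 0.52, adjusted p = 0.0447 by edgeR). ATP15, the epsilon subunit of the F1 head, had 256 and 359 CPM and then 146, against 90.05 to 161 in WT (log2 1.14, SE 0.34, adjusted p = 0.0311 by edgeR). For all 3 genes the library of the second set lay within the WT range. The count in H3K121R was 0 without WT S81, without H3K121R S77 or without H3K121R S78, 1 without WT S82 and 12 without H3K121R S109. It was also 0 with the genes of chromosome XI left out, which held 169 of the 223 genes called higher. No share of all genes is given for these counts. A change in the members and a change in the number of calls among all genes therefore cannot be told apart.

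The set of sample numbers moved with the level of these genes. In the model with the set as a covariate, 20 of the 32 were lower and 0 higher in the second set than in the first, where 21.6% of all genes were lower and 22.4% higher. The members' median log2 difference was -0.43, against -0.02 for all genes. Of the 32, 30 had a negative difference, the exceptions being COX13 (0.06) and ATP14 (0.18). The largest was that of COX5B, -0.69 (SE 0.13, edgeR adjusted p = 1.17e-05). The count was also 20 without H3K4R S55. Of 21 genotypes with libraries in both sets, 15 had a lower mean over the 32 genes in the second set, with a median difference of -0.34. The lowest differences were those of H3K121A (-1.58), H3K121R (-1.13), H3K121Q (-1.08) and H4Y88F (-0.82). The highest was that of H3K4R (1.39), whose first-set mean includes H3K4R S55. How far these genotypes set the difference between the sets was not tested.

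Within the first set the high libraries had consecutive sample numbers. The 8 libraries S73 to S80, from H4Y88F (S73, S74), H3K121A (S75, S76), H3K121R (S77, S78) and H3K121Q (S79, S80), had mean deviations of 0.79 to 1.29 over the 32 genes. None of the other 36 libraries of the set reached 0.79, the highest being 0.58. The neighbours on either side were low, H4K91Q S71 and S72 at -0.15 and -0.30 and WT S81 and S82 at -0.15 and -0.19. The second-set libraries of the same 4 mutants, S107 to S110, had 0.07, -0.63, -0.07 and 0.09. In these first-set libraries, mutation and sample position cannot be told apart.

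**Figure D3:**
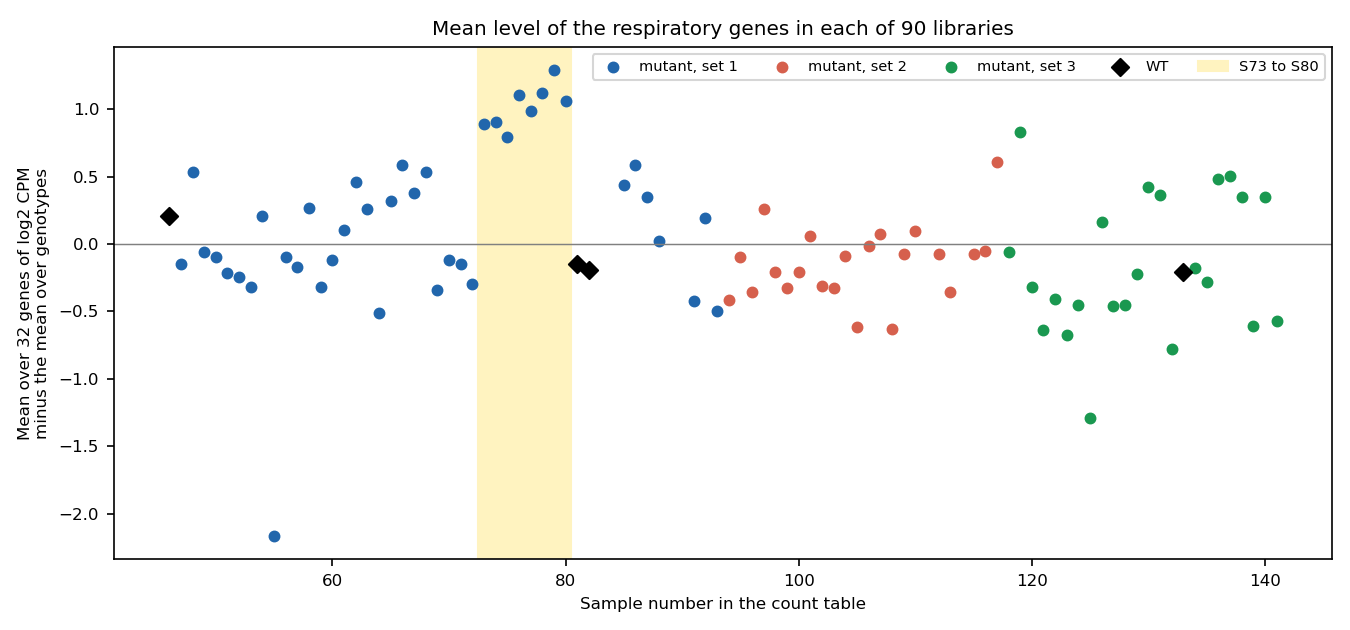
Mean over the 32 genes of log2 CPM minus the gene's mean over genotypes (vertical axis) in each of 90 libraries, by sample number (horizontal axis), with WT as diamonds and mutants as dots coloured by set. The shaded libraries S73 to S80 lie between 0.79 and 1.29, above all other libraries but H3K37Q S119 (0.83), and H3K4R S55 is the lowest, at -2.16.

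Comparisons within the first set, added after the data were seen, used the 3 WT libraries S46, S81 and S82 and 2 libraries of each mutant, except for H4K44R, whose 1 library was assumed to vary like the other groups. Over 21 mutants they called 53 member and mutant pairs higher and 1 lower, against 0.867% and 0.654% of all pairs. Of the 53, 21 fell in H3K121Q, 16 in H3K121R, 7 in H4Y88F and 6 in H3K121A, where 2.84%, 4.93%, 1.03% and 0.672% of all genes were called higher. The share of all genes in H3K121R includes genes of chromosome XI, which was raised in that mutant and holds no member. These are the 4 mutants with the consecutive numbers. The rest were QCR7 and ATP4 in H3K36A (2.47% of all genes higher), ATP1 in H3K4Q (1.4%), and CYT1 lower in H4K44Q (0.121% lower).

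The 4 comparisons share their WT libraries, so their values are given side by side and no overlap is read from them. CYT1 (YOR065W, chromosome XV, 447439 to 448368), the gene of cytochrome c1, had 123.5 and 181 CPM in H3K121R S77 and S78, against 40.1, 45.5 and 41.7 in the first-set WT libraries (log2 1.83, SE 0.22, edgeR adjusted p = 1.12e-06). In H3K121Q it was higher by log2 1.47, in H4Y88F by 1.45 and in H3K121A by 1.32, each with SE 0.23. WT S133, which is not in the first set, had 84.01 CPM of CYT1. With all libraries CYT1 was not called in any mutant against WT. ATP20, a subunit that helps to join ATP synthase dimers, was higher by log2 1.35 in H3K121R, 1.18 in H3K121A, 1.15 in H4Y88F and 1.01 in H3K121Q. Median log2 fold changes over the 32 genes were 0.94 in H3K121A, 1.14 in H3K121Q, 0.98 in H3K121R and 0.94 in H4Y88F, against -0.04, -0.03, -0.03 and -0.02 for all genes. ATP14, called with all libraries in H3R40K, H3T3A, H3T3D and H3S31D, was not called in any of these 4 comparisons.

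**Figure D4:**
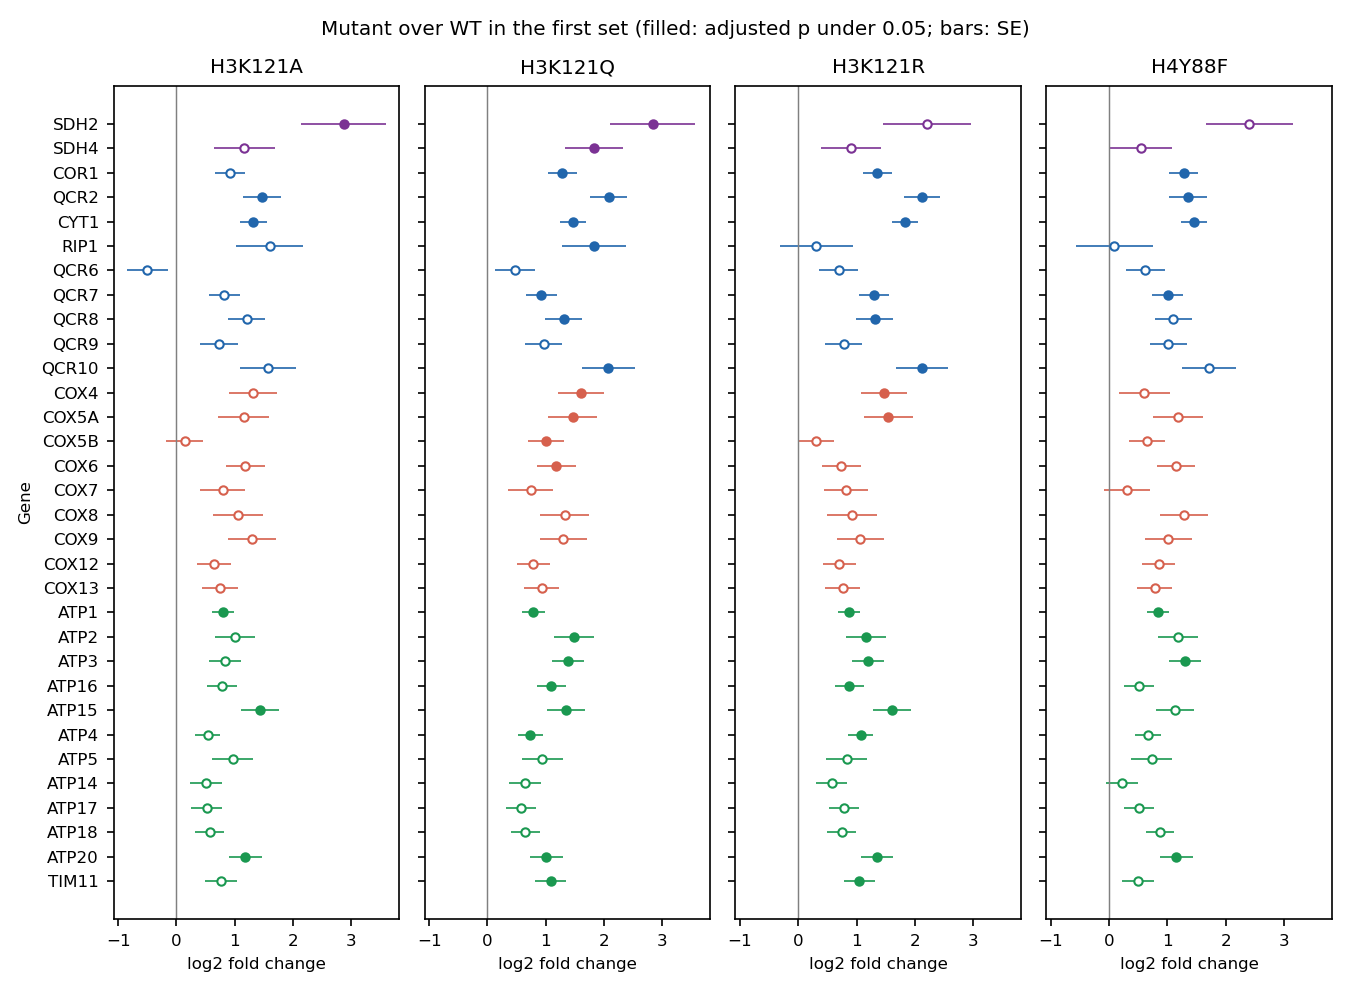
Log2 fold change over WT of the 32 genes in the first-set libraries of 4 mutants (2 libraries each, 3 of WT), with SE bars; filled points were called at an adjusted p under 0.05 and colours give the complex. Of the genes, 6 are filled in H3K121A, 21 in H3K121Q, 16 in H3K121R and 7 in H4Y88F, and the only value below 0 is that of QCR6 in H3K121A (-0.50).

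Averaged over all 29 mutants, none of the 32 genes was called against WT by edgeR, where 0.137% of all genes were called, and DESeq2 also called 0. At an unadjusted p under 0.05 there was 1, ATP14 (log2 0.47, SE 0.17, edgeR adjusted p = 0.526).

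Between substitutions of one residue, which do not involve WT, 2 of 544 comparisons in 17 pairs were called, against 0.694% of all pairs. SDH4 was at 18.9, 64.7 and 39.4 CPM in H3K37Q and at 7.23, 10.2 and 8.51 in H3K37R (log2 2.22, SE 0.61, edgeR adjusted p = 0.0193). The groups did not overlap, and leaving out H3K37Q S119 or any H3K37R library ended the call. Of 5822 genes, 225 were higher and 34 lower in H3K37Q than in H3K37R, and chromosome XI was raised over WT in H3K37Q. CYT1 was at 52.6, 24.5, 26.2 and 33.8 CPM in H4Y88A and at 67.1, 119.2 and 117.8 in H4Y88F (log2 -1.62, SE 0.43, edgeR adjusted p = 0.0392), again without overlap. That call was lost without H4Y88A S132, S47 or S48 and without H4Y88F S73 or S74. In this pair 50 of 5822 genes were lower and 38 higher in H4Y88A.

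Within the first set the alanine and phenylalanine substitutions of H4Y88 differed in 8 genes. H4Y88A was lower than H4Y88F in COR1, QCR2, CYT1, QCR7, COX5B, ATP1, ATP3 and ATP18, where 2.78% of all genes were lower. CYT1 had the largest difference (log2 -1.97, SE 0.27, edgeR adjusted p = 3.09e-05), with 26.2 and 33.8 CPM in H4Y88A S47 and S48 and 119.2 and 117.8 in H4Y88F S73 and S74. The H4Y88F libraries are among the 8 with consecutive numbers. No other pair in the first set had a called member, among them the 3 pairs of H3K121 substitutions and the pair of H4K44Q and H4K44R, the latter with 1 library.

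H3 mutants as a class were compared with H4 mutants on counts summed per genotype, with strains as replicates. None of the 32 genes was called (edgeR quasi-likelihood test), where 0.0168% of all genes were higher and 0.0505% lower in the H3 mutants, and DESeq2 called 0. At an unadjusted p under 0.05 there were 0, against 261 of 5945 genes. The members' log2 differences were positive for 30 of 32, with a median of 0.15 against 0.01 for all genes. CYT1 had the smallest unadjusted p (log2 0.43, SE 0.22, edgeR adjusted p = 0.999), with genotype means of 68.3 ± 27.03 CPM in the H3 and 50.7 ± 23.3 in the H4 mutants. CYC1, the main cytochrome c and no member of the set, differed in the same test by log2 1.15 (SE 0.17, adjusted p = 0.000819), a gene already known to stand out in these data.

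COX5A (YNL052W) and COX5B (YIL111W) encode alternative forms of subunit 5 of complex IV, of which the first is made in air and the second at low oxygen. COX5A stood at 22.5, 31.9, 29.9 and 14.6 CPM in WT S133, S46, S81 and S82, and COX5B at 52.1, 132.5, 73.9 and 87.8. The log2 level of COX5B minus that of COX5A was 1.73 ± 0.63 in WT (SD, n = 4), a value comparable between genotypes but not a ratio of molecules. It was highest in H3T3D, at 3.55 ± 0.32 (n = 2), and H3S31D, at 3.19 ± 0.70 (n = 3), and lowest in H3S86D, at 0.37 ± 0.57 (n = 3).

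In H3T3D, COX5B had 180 and 161 CPM and COX5A 12.0 and 15.0. In H3S31D, COX5B had 100.1, 116.6 and 103.7 CPM and COX5A 8.16, 21.04 and 6.57. Neither gene was called in either mutant over WT. With the set as a covariate COX5B was called in H3T3D (log2 2.05, SE 0.47, edgeR adjusted p = 0.00459). For this third-set mutant, that fit rests on WT S133 and H4Y88A S132 to place the set. By library, the difference of COX5B and COX5A ran from 3.32 to 3.77 in H3T3D, above WT at 1.16 to 2.49. In H3S31D it ran from 2.40 to 3.74 and overlapped WT. All 29 pairs of neighbours in the order of genotypes had overlapping libraries. Groups sorted by their means mostly overlap their neighbours, so this count says nothing of genotypes further apart. The mean difference was 1.47 ± 0.80 over the 22 H3 mutants and 1.40 ± 0.55 over the 7 H4 mutants, and these did not differ beyond the spread between strains (difference 0.08, two-sided exact permutation test over 1560780 splits, p = 0.821). In the first set alone the difference was 0.28 (exact permutation p = 0.343).

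**Figure D5:**
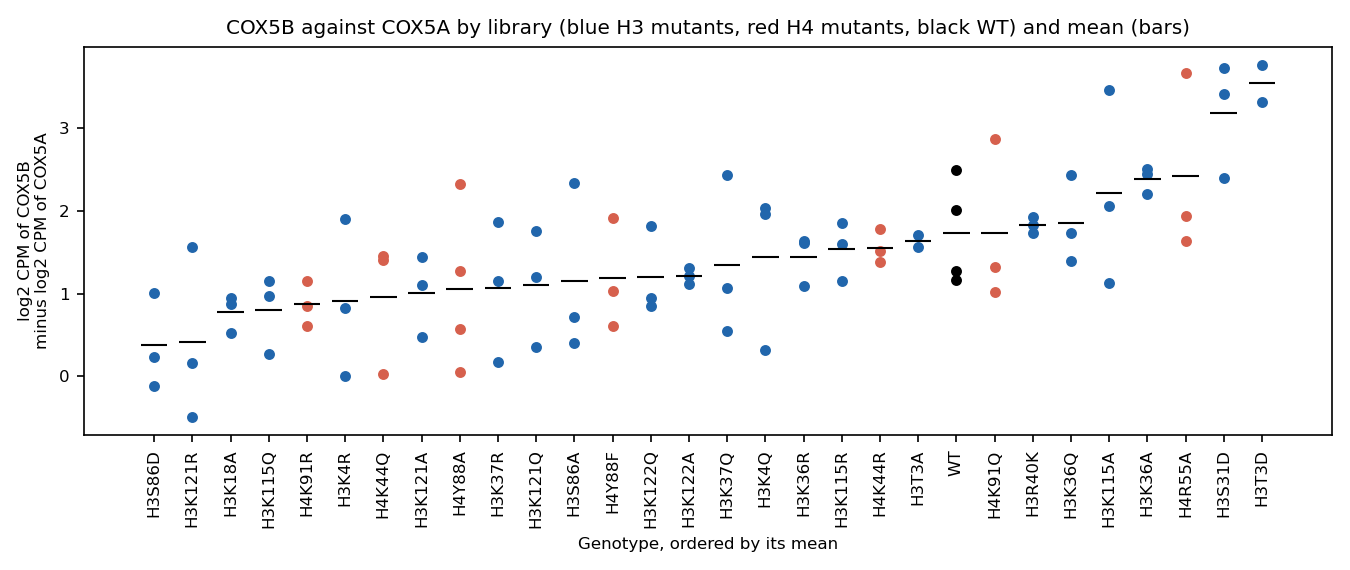
Log2 CPM of COX5B minus log2 CPM of COX5A in each library (dots, blue for H3 mutants, red for H4 mutants, black for WT), by genotype in the order of the means (bars). H3S31D and H3T3D lie at the right with means of 3.19 and 3.55, and H3 and H4 mutants are mixed along the rest of the axis.

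Genes around the 32 were described by lists, against the same shares of 0.856% higher and 0.548% lower. Of 7 other subunits of the complexes, 15 of 203 gene and mutant pairs were called higher and 0 lower. SDH1, SDH3 and ATP7, which lie on chromosome XI, were called in H3K121R and H3K37Q, and ATP7 also in H3R40K. COX26, a small subunit of complex IV, was called in H3K37Q, H3R40K, H3S31D and H3T3A, INH1, an inhibitor of the ATP synthase, in H3K121Q, H3K121R and H3R40K, and STF1, a related protein, in H3T3D. In the first set INH1 was higher in each of the 4 mutants with consecutive numbers, by log2 2.48 in H3K121Q (SE 0.31, edgeR adjusted p = 3.05e-06), 2.26 in H3K121R, 2.12 in H4Y88F and 1.81 in H3K121A.

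Of the assembly factors, 5 of 754 pairs were called higher and 0 lower: SDH6, a factor for complex II, in H3K121Q and H3K121R, COX15, an enzyme of haem a synthesis, in H3T3A and H3T3D, and PET117 in H3T3D. Among genes of haem synthesis HEM13 was called higher, in H3K121Q and H3K121R (2 of 232 pairs). Of the enzymes that bring electrons into the chain, DLD1, a D-lactate dehydrogenase, was lower in H3K4Q and H3T3D (2 of 174 pairs), and none was higher.

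Of 8 transcription regulators 7 were tested, and 0 of 203 pairs were called by edgeR with all libraries. HAP4, the regulated subunit of the HAP complex, lies on chromosome XI and had 23.9 ± 14.0 CPM in WT (n = 4). In the first set it was higher in H3K121R (log2 1.34, SE 0.32, edgeR adjusted p = 0.0073), where chromosome XI as a whole was raised, and in H3K36A (log2 1.09, SE 0.32, adjusted p = 0.0411). In H3K121Q it was not called (log2 0.39, SE 0.36, edgeR adjusted p = 0.624), nor in H3K121A (0.73) or H4Y88F (0.72). The only other regulator called in the first set was MIG1, a repressor of glucose-repressed genes, which was lower in H3K115Q (log2 -5.65, SE 1.31, edgeR adjusted p = 0.0298). With all libraries MIG1 did not pass the filter on low counts. At such depth the size of its fold change is uncertain. Of the mitochondrial genes for subunits of the same complexes, COX1, COX2, ATP6 and OLI1 were tested, and no pair was called with all libraries. In the first set COX2 was higher in H3K4R (log2 2.20, SE 0.59, edgeR adjusted p = 0.0463), 1 of whose 2 libraries there is the one with 24010 counts.

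In the first set, genes repressed by glucose were called in mutants with and without called members. ADH2, the glucose-repressed alcohol dehydrogenase, was lower in all 4 mutants with consecutive numbers, by log2 -1.46 in H3K121A, -1.93 in H3K121Q, -2.97 in H3K121R and -1.36 in H4Y88F. It was also called lower against the same 3 WT libraries in H3K115A (-2.16), H3K115Q (-2.66), H3K115R (-1.89), H3K122A (-2.23), H3K122Q (-2.02), H3K4Q (-1.85), H3K4R (-2.64) and H3S86A (-1.96), of which H3K4Q alone had a called member. HXK1, a hexokinase also repressed by glucose, was higher in H3K121Q (log2 3.52), H3K121R (2.79) and H4Y88F (2.69). Of the 9 genes of this list tested, no other was called in these mutants, and their part in the levels of the 32 genes was not tested. Of the hypoxic genes, 8 of 203 pairs were called higher and 2 lower over all mutants. DAN1, a cell wall protein of anaerobic cells, was higher in H3T3D (log2 4.70, SE 0.65, edgeR adjusted p = 1.84e-06), the mutant with the highest difference of COX5B and COX5A. TIR1 (log2 1.14) and CYC7, the minor cytochrome c (1.73), were also higher there, whereas in H3S31D the hypoxic translation factor gene ANB1 was lower (-2.35). Calls also fell in mutants whose difference of COX5B and COX5A was below or near that of WT (1.73). DAN1 was higher in H4K44Q (log2 3.04, SE 0.66, edgeR adjusted p = 0.0061), where the difference was 0.96. TIR1 was higher in H3K37Q (log2 0.95) and H3R40K (1.19), where it was 1.35 and 1.83, and ANB1 was lower in H3R40K (-1.88). Their part in the COX5B difference was not tested.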

How the data were processed

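The table deposited by the authors holds raw read counts for each gene, and these entered the tests as they stand. Per the submitters' processing notes TopHat, HTSeq, featureCounts 1.5.3 and sacCer3 were used, with roles and strand setting not given in the sources used here, so overlapping antisense reads cannot be told apart. Reads placed at several sites (1.26 to 8.17 times the gene counts) and in no gene (0.406 to 1.01 times) were left out of totals. Columns give the genotype but no replicate number, and nothing says that replicates were separate cultures, so p-values measure only the spread between libraries. Symbols and positions are from the RefSeq table for assembly R64 (6045 of 7122 names matched).

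edgeR 4.0.16 in R 4.3.3 fitted a quasi-likelihood model to 90 libraries (TMM scaling, filterByExpr, 5822 genes, 1 coefficient per genotype). Tests were two-sided, adjusted by Benjamini-Hochberg over all genes, and called under 0.05. The common dispersion was 0.0543. Log2 levels used a prior count of 2. Alternatives included DESeq2 1.42.0 and RLE scaling. Scripts were tested on simulated data.

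Members and lists were chosen with earlier results of these data known. All members could be named; list genes could be named where called, and cytochrome c, regulator and mitochondrial genes always. The sets were known from earlier results; the F test and single-set fits were chosen after seeing the data. The 14 ATAC-seq samples were not analysed here.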

Additional observations from a re-analysis of the deposited data

Results flagged for a closer look

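Among the 64 groups of 4 libraries checked (32 genes in WT and in H4Y88A), 6 had a library far from the other 3; chance flags about 1 in 20 such groups. In WT S46, SDH4 stood at 56.4 CPM against 17.4 to 22.3 in the other WT libraries, QCR9 at 20.4 against 12.1 to 13.1, and COX12 at 62.5 against 33.3 to 34.4. In WT S133, CYT1 stood at 84.01 CPM against 40.1 to 45.5. In H4Y88A S48, SDH2 stood at 7.29 CPM against 1.28 to 1.81, and RIP1 at 3.31 against 1.28 to 1.46, both from few reads. Between substitutions of one residue, SDH4 differed between H3K37Q and H3K37R by log2 2.22 and CYT1 between H4Y88A and H4Y88F by -1.62, in tests of the difference itself.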

How the results depend on the processing

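The count of 11 member and mutant pairs against WT was 54 within the first set alone, where 0.867% of all pairs were higher and 0.654% lower. It was 4 with the libraries of only the mutant and WT in the fit. Most of the alternative counts in this paragraph have no share of all genes beside them. For those, a change in the members and a change in the number of calls among all genes cannot be told apart. Leaving out single libraries gave 5 (without WT S81) to 25 (without H3K121Q S110), with 6 without WT S82 and 21 without H3K121R S109. For H3K121R the count of 3 was 16 within the first set, 0 with chromosome XI genes left out, 0 with only its own and WT libraries, and 0 to 12 with single libraries left out. For H3R40K the count of 4 was 8 with the set as a covariate, 2 with only its own and WT libraries, and 2 to 4 with single libraries left out. Between substitutions the count of 2 was 7 with the set as a covariate, 4 with DESeq2, 8 within the first set, and 1 to 7 with single libraries left out (7 without H4Y88F S107). The count for any difference among genotypes was 24 to 29, and the counts for the mean of the mutants and for H3 against H4 mutants were 0 under every alternative run. The COX5B difference between H3 and H4 mutants was -0.022 without H3T3D and up to 0.25 without H4R55A. Of 158 recomputed values of the 13 named calls, 54 lost the call and 0 changed sign; the causes were not tested. No paired analysis was possible because the columns carry no replicate number. SDH2 and RIP1, at about 4 reads per library, are limited by depth.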
